A study of Mus musculus with 8 samples.

Results

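The 33 genes described here encode enzymes that build cholesterol and fatty acids. They were taken by symbol from a deposited table of read counts for 36255 genes, and all 33 were found in it. The mevalonate steps hold 8 of them and the sterol steps 11, together called the sterol enzymes (19), and the other 14 are the fatty acid enzymes. All 33 passed the filter on low counts, with 16542 genes tested in all.

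Cells build cholesterol from acetyl-CoA through mevalonate, farnesyl pyrophosphate, squalene and lanosterol, and build fatty acids from acetyl-CoA through malonyl-CoA. The transcription factors SREBP2 and SREBP1, held in the endoplasmic reticulum by SCAP and INSIG proteins while sterols are plentiful, switch on most sterol enzymes and many fatty acid enzymes. Rapidly growing cells such as embryonic stem cells need both products for new membranes.

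RNA was sequenced at 2 stages of mouse cells, embryonic stem cells (ES cells) and embryoid bodies at day 2 (EBd2), the floating aggregates in which such cells start to differentiate. By the sample titles, fl/fl libraries carry Skp1a flanked by loxP sites and KO libraries have Skp1a knocked out. Skp1a encodes the adaptor that holds F-box proteins in SCF ubiquitin ligases. The 4 groups, fl/fl ES cells, KO ES cells, fl/fl EBd2 and KO EBd2, hold 2 libraries each, named by lot (1, 2 or 12). All 4 were grown in standard ES or embryoid body medium. Strain, the agent that deleted the gene, the number of clones and whether lots are separate cultures were not stated, so p-values measure no more than the spread of these libraries, possibly a technical one. The study compared the 2 genotypes at each stage.

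Total counts ran from 21545868 to 23343471 in ES cells and from 7858452 to 10055667 in EBd2, and the lowest count of a member in any library was 76. Skp1a itself read 420.2 and 430.3 CPM for fl/fl ES cells, 369 and 361 for KO ES cells, 401 and 389 for fl/fl EBd2 and 286 and 289.6 for KO EBd2. It kept most of its level in libraries labelled KO, at log2 fold changes of -0.22 ± 0.03 (SE) in ES cells and -0.46 ± 0.04 in EBd2 (edgeR adjusted p = 0.00073 and 5.13e-07), so KO below means labelled KO. Counts per gene cannot show whether exons of Skp1a were deleted. The tissue labels call every KO library an ES cell and every fl/fl library an embryoid body, against the titles. The epiblast markers Fgf5, Otx2, Pou3f1 and Dnmt3b summed to between 1668 and 1786 CPM in fl/fl EBd2 and to between 306 and 321 CPM in KO EBd2. In ES cells they summed to between 171 and 204 CPM. The mitochondrial share of counts was 1.73% to 1.76% in fl/fl ES cells, 2.42% to 2.43% in KO ES cells, 2.28% to 2.70% in fl/fl EBd2 and 3.15% to 3.24% in KO EBd2.

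Levels are CPM, a gene's count relative to the library's total with TMM factors applied, given for each library in the lot order of its group: lots 1 and 2 for fl/fl ES cells and KO EBd2, lots 1 and 12 for KO ES cells and fl/fl EBd2. A gene is called higher or lower where its adjusted p from edgeR's quasi-likelihood test is below 0.05, adjusted over all 16542 genes by the Benjamini-Hochberg method. Fold changes are log2 values ± SE with n = 2 libraries per group. Exon length means the union of a gene's annotated exons over all its transcripts.

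In KO ES cells 26 of the 33 members were called higher than in fl/fl ES cells and none lower, by at most 0.52 on the log2 scale, where 23.7% of all genes tested were called and 10.9% called higher. In KO EBd2 27 were called lower than in fl/fl EBd2, 4 higher and 2 were not called, where 62.2% of all genes tested were called and 31.5% called lower. The median log2 fold change there was -1.08 for the sterol enzymes and -0.51 for the fatty acid enzymes, against 0.004 for all genes tested. Most sterol enzymes had their highest levels in fl/fl EBd2 and their lowest in KO EBd2.

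**Figure D1:**
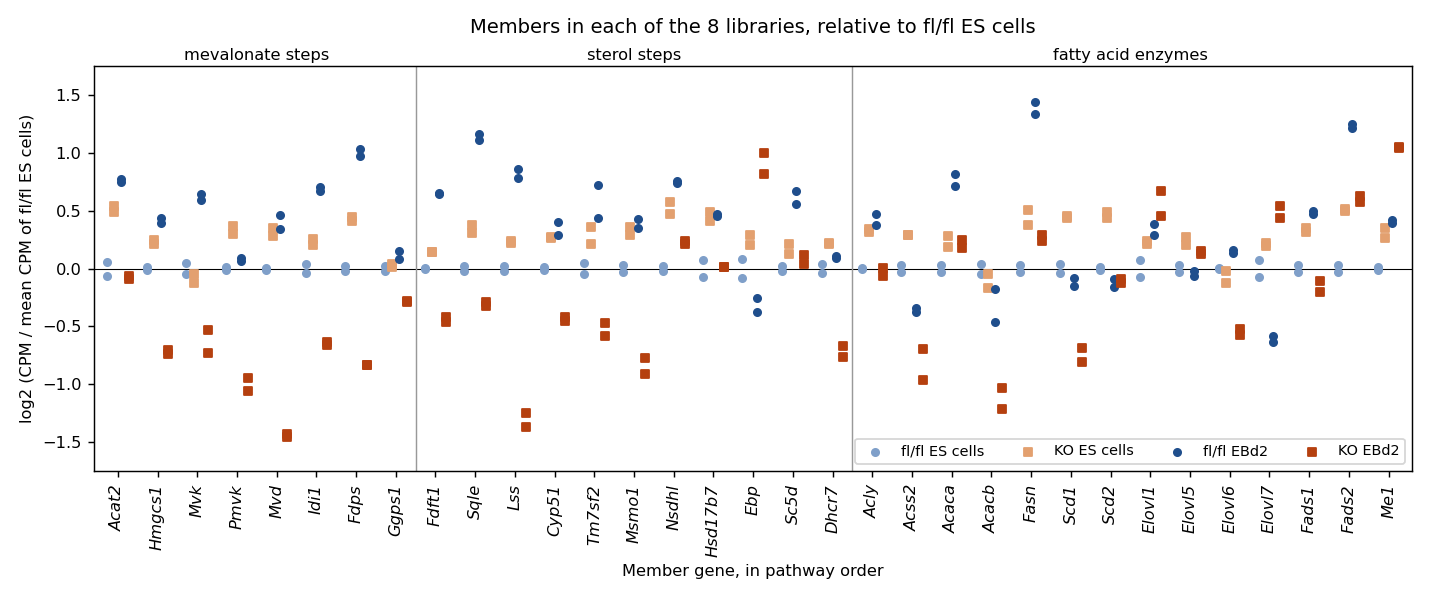
Each point is 1 library, placed at log2 of its CPM over the mean CPM of fl/fl ES cells, with the 33 members in pathway order on the horizontal axis. Both KO EBd2 libraries lie below the other 6 libraries for all 8 mevalonate members, while Ebp, Elovl1, Elovl7 and Me1 have both KO EBd2 libraries on top.

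Because most sterol enzymes moved together, their promoters are shown, as the 150 bases before the transcript start in RefSeq's table (GRCm38.p6). Of the 33 members 27 matched that table, with 32 promoters, and Fdps, Fdft1, Sqle, Scd1, Scd2 and Fads1 did not. The 7 printed were chosen after their values were seen: Hmgcs1, Mvk, Mvd and Lss from the sterol enzymes that fell, Fasn as the fatty acid enzyme that fell most, and Ebp and Elovl7 as members that rose. Capitals mark ATTGG on either strand (CCAAT when read on the other strand, the box bound by NF-Y) and TCACNCCAC, a core of the sterol regulatory element bound by SREBPs. Each reads 5′ to 3′ on the gene's strand and stops before any annotated protein-coding exon, which leaves 133 bases for Lss.
Hmgcs1 (chr13:119690201-119690350, + strand): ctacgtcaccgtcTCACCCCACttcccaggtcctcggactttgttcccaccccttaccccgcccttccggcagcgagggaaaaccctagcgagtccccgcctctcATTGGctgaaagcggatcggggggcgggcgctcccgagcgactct
Mvk (chr5:114444119-114444268, + strand): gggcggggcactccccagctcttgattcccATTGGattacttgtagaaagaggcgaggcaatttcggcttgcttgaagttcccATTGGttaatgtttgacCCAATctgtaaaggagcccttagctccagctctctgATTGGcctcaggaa
Mvd (chr8:122443423-122443572, - strand): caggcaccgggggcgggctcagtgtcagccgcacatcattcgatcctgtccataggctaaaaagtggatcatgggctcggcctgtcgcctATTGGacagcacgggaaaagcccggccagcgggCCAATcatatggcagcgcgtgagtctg
Lss (chr10:76531455-76531587, + strand): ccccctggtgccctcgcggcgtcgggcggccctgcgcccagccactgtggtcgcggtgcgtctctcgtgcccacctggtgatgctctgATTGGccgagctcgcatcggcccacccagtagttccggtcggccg
Ebp (chrX:8193513-8193662, - strand): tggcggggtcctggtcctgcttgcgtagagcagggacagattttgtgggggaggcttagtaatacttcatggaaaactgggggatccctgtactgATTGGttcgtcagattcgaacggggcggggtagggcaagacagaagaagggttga
Fasn (chr11:120824548-120824697, - strand): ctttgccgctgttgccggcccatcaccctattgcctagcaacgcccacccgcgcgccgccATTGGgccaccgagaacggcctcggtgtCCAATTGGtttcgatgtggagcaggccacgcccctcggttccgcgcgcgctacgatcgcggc
Elovl7 (chr13:108214254-108214403, + strand): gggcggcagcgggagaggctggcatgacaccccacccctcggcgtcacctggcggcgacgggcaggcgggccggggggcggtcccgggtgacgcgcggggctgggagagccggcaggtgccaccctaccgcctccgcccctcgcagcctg

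ATTGG was found in 15 of 19 promoters of sterol enzymes (78.9%) and in 5 of 13 promoters of fatty acid enzymes (38.5%), against 24.5% of all 32851 promoters in the table and 26.9% of those of tested genes. Whole windows were counted, including any part in an annotated protein-coding exon. Those of Ggps1, Tm7sf2, Msmo1 and Nsdhl, and the Dhcr7 window with ATTGG, began in such an exon. In the windows of Idi1, Cyp51 and Acss2 every ATTGG match lay past the first base of such an exon. Mvk held 4 matches in its window, and Mvd 2, at 60 and 27 bases before the start. Fasn held 3, of which a pair overlapped. The promoter of Ebp, which rose, held 1 as well, 55 bases before the start. TCACNCCAC, also searched on both strands, was found 137 bases before the start of Hmgcs1 and in 0.639% of all promoters. It was in no other window of the 27 members that matched the promoter table, and the other members were not searched. The GC box GGGCGG was found in 14 of 19 promoters of sterol enzymes and in 6 of 13 of fatty acid enzymes (73.7% and 46.2%), against 28.6% of all promoters and 49.6% of those of tested genes. The E-box CACGTG was in 2 of 19 and 0 of 13, against 4.30% and 5.82%. These matches describe the letters in the windows and carry no test.

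The mevalonate path opens with Acat2, which joins acetyl-CoA units in the cytosol, and Hmgcs1 (ENSMUSG00000093930, chromosome 13, 119690379 to 119708260, + strand, GRCm38), which makes HMG-CoA. Hmgcs1 was measured at 517 and 528 CPM for fl/fl ES cells, 605 and 619 for KO ES cells, 685 and 706 for fl/fl EBd2, and 322 and 314 for KO EBd2. Acat2 read 105 and 114 CPM for fl/fl ES cells, 159.6 and 154 for KO ES cells, 184 and 187 for fl/fl EBd2, and 104 and 103 for KO EBd2. For both, fl/fl EBd2 were highest and KO EBd2 lowest, in Acat2 only just below fl/fl ES cells, with no overlap between the genotypes at either stage. Hmgcs1 rose in KO ES cells by 0.23 ± 0.03 (edgeR adjusted p = 0.000671), and its change in KO EBd2 was -1.13 ± 0.04 (edgeR adjusted p = 6.08e-10). Acat2 changed by 0.52 ± 0.04 and -0.84 ± 0.05. Acat2 shares 97.7% of 1477 aligned bases with Acat3 and a shorter stretch with Tcp1, so its reads may be split. Over all libraries Acat2 held 16762 counts, Acat3 189 and Tcp1, which matches over 445 bases at 98.7%, 80658.

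Mvk, Pmvk and Mvd carry out the phosphorylations and the decarboxylation that turn mevalonate into isopentenyl pyrophosphate. Mvd (ENSMUSG00000006517, chromosome 8, 122433601 to 122443422, - strand) had levels of 75.1 and 76.01 CPM for fl/fl ES cells, 96.1 and 91.9 for KO ES cells, 104 and 95.4 for fl/fl EBd2, and 28.02 and 27.6 for KO EBd2. Both KO EBd2 libraries lay far below the other 6, at 27.9% of the fl/fl EBd2 mean, a change of -1.84 ± 0.06 (edgeR adjusted p = 1.14e-09). Mvk stood at 21.6 and 20.3 CPM for fl/fl ES cells, 19.2 and 20.3 for KO ES cells, 31.6 and 32.7 for fl/fl EBd2, and 14.5 and 12.6 for KO EBd2. Its ES cell libraries of the 2 genotypes overlapped (-0.09 ± 0.08, edgeR adjusted p = 0.462), while it fell in KO EBd2 (-1.25 ± 0.10). Pmvk was measured at 35.2 and 35.8 CPM for fl/fl ES cells, 43.7 and 45.7 for KO ES cells, 37.8 and 37.04 for fl/fl EBd2, and 18.4 and 17.1 for KO EBd2. Unlike its neighbours it barely differed between fl/fl EBd2 and fl/fl ES cells (0.07 ± 0.06, edgeR adjusted p = 0.36), and both KO EBd2 libraries lay below the 4 ES cell libraries (-1.08 ± 0.08 against fl/fl EBd2).

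Idi1 isomerises isopentenyl pyrophosphate, Fdps joins the units into farnesyl pyrophosphate, and Ggps1 takes farnesyl on to geranylgeranyl pyrophosphate, the donor for protein prenylation. Fdps (ENSMUSG00000059743, chromosome 3, 89093588 to 89101959, - strand) read 169 and 165 CPM for fl/fl ES cells, 226 and 222 for KO ES cells, 328 and 342 for fl/fl EBd2, and 93.9 and 93.7 for KO EBd2. The fl/fl EBd2 libraries held about 200.6% of the fl/fl ES cell mean and KO EBd2 56.2% of it. Fdps rose in KO ES cells (0.42 ± 0.03, edgeR adjusted p = 1.92e-05) and fell in KO EBd2 (-1.84 ± 0.04, edgeR adjusted p = 6.1e-11). Idi1 had levels of 169.6 and 179 CPM for fl/fl ES cells, 208 and 200.1 for KO ES cells, 284 and 277 for fl/fl EBd2, and 110.2 and 112 for KO EBd2. It followed the same order, with changes of 0.23 ± 0.04 and -1.33 ± 0.04 by genotype. An Idi1 pseudogene, Gm13502, matches 684 of its bases exactly and held 2506 counts against 23315, so part of the reads may have been assigned to either. Fdps has near-identical pseudogenes too, of which Gm3571 (98.9% of 1062 aligned bases) held the most counts, 37 against 24388. Fdps also shares 1124 exon bases with Gm43738 on the same strand, which held 2 counts. Ggps1, which branches off the sterol path, moved least: its libraries ranged from 48.8 to 54.8 CPM in the first 3 groups and lay at 40.5 and 40.6 CPM in KO EBd2. It was not called in ES cells (0.03 ± 0.04, edgeR adjusted p = 0.72) and fell in KO EBd2 (-0.40 ± 0.06).

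Fdft1 joins farnesyl units into squalene, Sqle oxidises squalene, and Lss closes the rings to give lanosterol. Lss (ENSMUSG00000033105, chromosome 10, 76531588 to 76557138, + strand) stood at 125 and 120.5 CPM for fl/fl ES cells, 144 and 143 for KO ES cells, 210.4 and 222 for fl/fl EBd2, and 47.5 and 51.6 for KO EBd2. Its KO EBd2 libraries held 22.9% of the fl/fl EBd2 mean, the lowest share among the 33 members. The change was -2.12 ± 0.05 (edgeR adjusted p = 1.19e-10), and 1.61% of all genes tested had a lower log2 fold change in that comparison. Sqle (ENSMUSG00000022351, chromosome 15, 59315077 to 59331192, + strand), a rate-limiting step, was measured at 123 and 126 CPM for fl/fl ES cells, 154 and 161 for KO ES cells, 268 and 278 for fl/fl EBd2, and 102 and 99.4 for KO EBd2. Both fl/fl EBd2 libraries were above every other library, with a rise over fl/fl ES cells of 1.14 ± 0.04 (edgeR adjusted p = 1.16e-09), the largest among sterol enzymes, and it fell in KO EBd2 against fl/fl EBd2 (-1.44 ± 0.04). Fdft1 read 151 and 151 CPM for fl/fl ES cells, 167 and 167 for KO ES cells, 236 and 235 for fl/fl EBd2, and 113 and 109.6 for KO EBd2. Its rise in KO ES cells was the smallest one called (0.15 ± 0.03, edgeR adjusted p = 0.00643), and it missed the threshold without lot 1 of fl/fl ES cells (edgeR adjusted p = 0.0554). Exons of Fdft1 overlap 774 bases of Ctsb on the other strand, and since the strand setting of the counting is not given, reads of the 2 genes cannot be told apart there.

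Lanosterol is demethylated by Cyp51, reduced by Tm7sf2 and cleared of its other methyl groups by Msmo1, Nsdhl and Hsd17b7. Cyp51 had levels of 157 and 159.6 CPM for fl/fl ES cells, 189.7 and 191 for KO ES cells, 193 and 209 for fl/fl EBd2, and 116 and 119 for KO EBd2. Msmo1 stood at 152 and 158 CPM for fl/fl ES cells, 198 and 189 for KO ES cells, 197 and 208 for fl/fl EBd2, and 82.4 and 90.9 for KO EBd2. Both rose in KO ES cells (0.27 ± 0.04 and 0.32 ± 0.04) and fell in KO EBd2, to 58.3% and 42.8% of fl/fl EBd2. Nsdhl was measured at 32.4 and 31.3 CPM for fl/fl ES cells, 44.1 and 47.5 for KO ES cells, 53.3 and 53.7 for fl/fl EBd2, and 36.9 and 37.5 for KO EBd2. Its rise in KO ES cells, 0.52 ± 0.05 (edgeR adjusted p = 0.000112), was with that of Acat2 the largest of the sterol enzymes, and its fall in KO EBd2 (-0.52 ± 0.07) left the KO EBd2 libraries above fl/fl ES cells. Hsd17b7 had the same order of groups, with libraries from 19.98 to 22.1 CPM in fl/fl ES cells, 27.96 to 29.5 in KO ES cells, 28.9 to 29.2 in fl/fl EBd2 and 21.3 in both of KO EBd2 (0.45 ± 0.07 and -0.45 ± 0.09 by genotype). Tm7sf2 was the lowest of the sterol enzymes per exon length, at 3.59 CPM per kb in fl/fl ES cells, with libraries from 10.6 CPM in KO EBd2 to 26.04 CPM in fl/fl EBd2. It fell in KO EBd2 (-1.10 ± 0.12, edgeR adjusted p = 1.34e-05), and Tm7sf2 shares 532 exon bases with Vps51 on the same strand, so its counts are uncertain.

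The last steps run through Ebp, Sc5d and Dhcr7, which in turn move, add and reduce double bonds on the way to cholesterol. Ebp (ENSMUSG00000031168, chromosome X, 8185329 to 8193512, - strand), the sterol isomerase, read 17.2 and 15.3 CPM for fl/fl ES cells, 18.7 and 19.8 for KO ES cells, 12.5 and 13.6 for fl/fl EBd2, and 32.5 and 28.6 for KO EBd2. It was the only sterol enzyme whose KO EBd2 libraries lay above all others and whose fl/fl EBd2 libraries lay below all others, with a rise in KO EBd2 of 1.22 ± 0.11 (edgeR adjusted p = 2.19e-06). It rose by stage in KO cells (0.66 ± 0.09). The change by stage in fl/fl cells, -0.31 ± 0.11 (edgeR adjusted p = 0.0334), was not called without lot 1 of fl/fl ES cells (adjusted p = 0.160), without lot 1 of fl/fl EBd2 (0.167) or without lot 12 of fl/fl EBd2 (0.0676). Dhcr7, the last enzyme of one branch, had levels of 103 and 109 CPM for fl/fl ES cells, 122 and 123 for KO ES cells, 113 and 114 for fl/fl EBd2, and 62.3 and 66.5 for KO EBd2. Its ES and EBd2 levels in fl/fl cells were not told apart by the test (0.10 ± 0.04, edgeR adjusted p = 0.0768), and it fell in KO EBd2 to 56.8% of fl/fl EBd2. Sc5d ranged from 37.8 to 44.4 CPM in ES cells and lay at 61.1 and 56.5 CPM in fl/fl EBd2 against 41.5 and 39.4 CPM in KO EBd2 (-0.54 ± 0.07).

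Per exon length the sterol enzymes spanned a wide range. In fl/fl ES cells Hmgcs1 was the highest of them at 113.7 CPM per kb, ahead of Idi1 (49.7), Acat2 (43.1), Mvd (40.6) and Fdps (39.6), while Tm7sf2 (3.59) and Hsd17b7 (4.13) were lowest. Lss moved from rank 19 among the 33 members in fl/fl EBd2 to rank 29 in KO EBd2, at 20.05 and 4.59 CPM per kb. Ebp moved from rank 29 to rank 19, at 5.66 and 13.2 CPM per kb. The order between genes depends on dividing by the union of annotated exons, which can be much longer than a single transcript. For Fdps that union was 4208 bases, while 1062 bases already made 76.9% of its longest coding transcript. On transcript length Fdps would therefore rank higher.

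**Figure D2:**
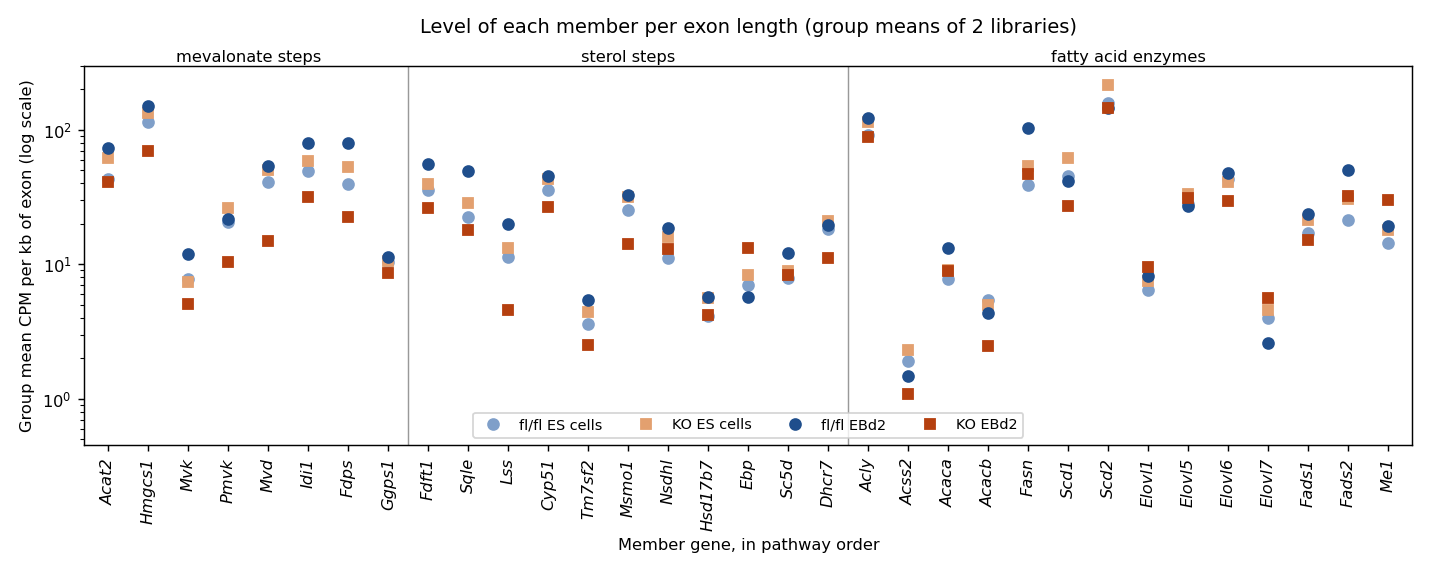
Points are the mean CPM of 2 libraries divided by the length in kb of the gene's annotated exons over all transcripts. The axis is logarithmic, with each of the 33 members and 4 groups shown. Scd2, Hmgcs1 and Acly are high throughout and Acss2 is lowest in every group, from 1.08 to 2.32 CPM per kb.

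Fatty acid synthesis draws on cytosolic acetyl-CoA, made from citrate by Acly and from acetate by Acss2, and on NADPH, to which the malic enzyme Me1 contributes. Acly (ENSMUSG00000020917, chromosome 11, 100476353 to 100528000, - strand) stood at 481 and 479 CPM for fl/fl ES cells, 597 and 609 for KO ES cells, 624 and 664 for fl/fl EBd2, and 483 and 458 for KO EBd2. KO EBd2 lay near the fl/fl ES cell level, at 98.0% of it, and differed from fl/fl EBd2 by -0.45 ± 0.04 (edgeR adjusted p = 1.72e-06). Me1 (ENSMUSG00000032418, chromosome 9, 86581371 to 86695953, - strand) was measured at 56.3 and 55.3 CPM for fl/fl ES cells, 70.9 and 67.1 for KO ES cells, 73.3 and 74.8 for fl/fl EBd2, and 115 and 115 for KO EBd2. It was higher in KO at both stages, by 0.31 ± 0.04 (edgeR adjusted p = 0.000483) in ES cells and 0.64 ± 0.05 (edgeR adjusted p = 3.97e-07) in EBd2, and reached 206.3% of the fl/fl ES cell mean. Acss2 read 19.7 and 18.9 CPM for fl/fl ES cells, 23.5 and 23.6 for KO ES cells, 15.2 and 14.9 for fl/fl EBd2, and 11.95 and 9.93 for KO EBd2. It was lowest in KO EBd2, but the fall against fl/fl EBd2 (-0.47 ± 0.12, edgeR adjusted p = 0.00439) was not called without lot 2 of KO EBd2 (edgeR adjusted p = 0.0635) or with library size alone as scaling (0.103). Exons of Acss2 overlap 395 bases of Gss and 197 of Ggt7 on the other strand.

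Acaca and Acacb are the acetyl-CoA carboxylases that make malonyl-CoA, Acaca for synthesis in the cytosol and Acacb at mitochondria, where malonyl-CoA restrains oxidation. Acaca had levels of 135 and 129.9 CPM for fl/fl ES cells, 151 and 161 for KO ES cells, 217 and 233 for fl/fl EBd2, and 157 and 149 for KO EBd2. Acacb stood at 53.5 and 50.3 CPM for fl/fl ES cells, 46.1 and 50.3 for KO ES cells, 37.8 and 45.9 for fl/fl EBd2, and 25.4 and 22.4 for KO EBd2. Both fell in KO EBd2 against fl/fl EBd2 (-0.56 ± 0.05 and -0.82 ± 0.11), but by stage they went apart: in fl/fl cells Acaca rose (0.77 ± 0.05) and Acacb fell (-0.30 ± 0.09, edgeR adjusted p = 0.0121). That call for Acacb was lost without lot 1 of fl/fl ES cells (edgeR adjusted p = 0.0695) or without lot 1 of fl/fl EBd2 (0.146). The CPM of Acaca was 2.52 and 2.58 times that of Acacb in fl/fl ES cells, 3.27 and 3.19 times in KO ES cells, 5.74 and 5.08 times in fl/fl EBd2 and 6.17 and 6.68 times in KO EBd2, ratios that are not corrected for length.

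Fasn, the fatty acid synthase, showed the widest swing of this class. Fasn (ENSMUSG00000025153, chromosome 11, 120805846 to 120824547, - strand) was measured at 437 and 421 CPM for fl/fl ES cells, 558 and 611 for KO ES cells, 1081 and 1162 for fl/fl EBd2, and 524 and 505 for KO EBd2. Both fl/fl EBd2 libraries were far above the rest, at 261.4% of the fl/fl ES cell mean (1.39 ± 0.05, edgeR adjusted p = 1.71e-09), and KO EBd2 held 45.9% of fl/fl EBd2 (-1.12 ± 0.05, edgeR adjusted p = 7.41e-09). Unlike most sterol enzymes, Fasn was higher in both KO EBd2 libraries than in fl/fl ES cells. Fasn was slightly lower in KO EBd2 than in KO ES cells (-0.18 ± 0.05, edgeR adjusted p = 0.00732), a call that was lost without lot 12 of KO ES cells (edgeR adjusted p = 0.0762) or lot 2 of KO EBd2 (0.0561), and with library size alone as scaling (0.553).

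Scd1 and Scd2 put the first double bond into saturated fatty acids. Scd2 (ENSMUSG00000025203, chromosome 19, 44293674 to 44306864, + strand) was the highest member per exon length in 3 of the 4 groups and second to Hmgcs1 in fl/fl EBd2. Scd2 read 866 and 853 CPM for fl/fl ES cells, 1164 and 1208 for KO ES cells, 769.8 and 809.8 for fl/fl EBd2, and 806 and 789 for KO EBd2. Scd1 (ENSMUSG00000037071, chromosome 19, 44394455 to 44407879, - strand) had levels of 215 and 226 CPM for fl/fl ES cells, 297 and 301 for KO ES cells, 199 and 209 for fl/fl EBd2, and 137 and 126 for KO EBd2. Both rose in KO ES cells (0.44 ± 0.04 and 0.46 ± 0.04). In EBd2 Scd1 fell in KO (-0.63 ± 0.05, edgeR adjusted p = 5.92e-07), whereas the Scd2 libraries of the 2 genotypes overlapped (0.01 ± 0.04, edgeR adjusted p = 0.761). The CPM of Scd2 was 3.78 to 4.03 times that of Scd1 in the 6 libraries of the other 3 groups and 5.89 and 6.25 times in KO EBd2. The 2 genes share 95.5% of 623 aligned bases, so some reads may be assigned to either. Under library size scaling without TMM factors Scd2 was called higher in KO EBd2 (0.24, edgeR adjusted p = 0.000165).

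The elongases lengthen fatty acids, and their members did not move as one. Elovl6, which extends palmitate to stearate, stood at 278 and 277 CPM for fl/fl ES cells, 255 and 274 for KO ES cells, 304 and 311 for fl/fl EBd2, and 193 and 186 for KO EBd2. It was lower in KO EBd2 than in all other libraries (-0.70 ± 0.04, edgeR adjusted p = 8.4e-08) and not called in ES cells (-0.07 ± 0.04, edgeR adjusted p = 0.205). Elovl7 was measured at 15.1 and 16.8 CPM for fl/fl ES cells, 18.6 and 18.3 for KO ES cells, 10.3 and 10.6 for fl/fl EBd2, and 21.6 and 23.2 for KO EBd2. Like Ebp it was lowest in fl/fl EBd2 and highest in KO EBd2 (1.10 ± 0.11, edgeR adjusted p = 3.79e-06). Elovl5, an elongase of polyunsaturated chains, lay between 94.5 and 119.8 CPM in all libraries and rose in KO ES cells (0.24 ± 0.04, edgeR adjusted p = 0.00156) and by a small amount in KO EBd2 (0.18 ± 0.05, edgeR adjusted p = 0.00733), where the call was lost without lot 12 of fl/fl EBd2 (edgeR adjusted p = 0.0658). Elovl1, which makes very long saturated chains, ranged from 16.7 CPM in fl/fl ES cells to 27.99 CPM in KO EBd2. It was called by genotype at neither stage, although without lot 1 of KO EBd2 it was called higher there (0.33, edgeR adjusted p = 0.025), as it was with library size alone (0.46, 0.00264), under which it was called higher in KO ES cells too (0.29, 0.0334).

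The desaturases Fads1 and Fads2 add double bonds to polyunsaturated fatty acids and lie next to each other on chromosome 19. Fads2 (10062765 to 10101746, - strand) read 71.6 and 69.03 CPM for fl/fl ES cells, 99.3 and 101 for KO ES cells, 163 and 167 for fl/fl EBd2, and 104 and 109 for KO EBd2. Fads1 (10182888 to 10196877, + strand) had levels of 83.3 and 80.2 CPM for fl/fl ES cells, 104 and 102 for KO ES cells, 113 and 115 for fl/fl EBd2, and 75.6 and 71.2 for KO EBd2. Both fell in KO EBd2 (-0.63 ± 0.04 and -0.64 ± 0.05), but Fads2 in KO EBd2 was above fl/fl ES cells, at 151.5% of them, while Fads1 was below, at 89.8%. In fl/fl cells Fads2 rose with stage by 1.23 ± 0.04 (edgeR adjusted p = 9.07e-10), the second largest rise of the fatty acid enzymes after Fasn.

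In ES cells the genotype differences were small, and those called were of one direction. Of the 19 sterol enzymes 16 were called higher in KO and none lower, with a median log2 fold change of 0.27, and of the 14 fatty acid enzymes 10 were called higher and none lower, with a median of 0.30. Mvk, Ggps1, Ebp, Acacb, Elovl1, Elovl6 and Elovl7 were not called. Of these, Mvk (-0.09), Acacb (-0.11) and Elovl6 (-0.07) lay below 0. Among all genes tested 23.7% were called, 10.9% higher and 12.8% lower (1806 and 2120 genes), with a median of 0.0043. With library size alone as scaling that split became 2819 and 1089, and the members 17 and 12 higher. The largest changes were in Nsdhl, Acat2 and Fads2 (0.52, 0.52 and 0.51).

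The ES cell calls rest on few libraries. Without lot 1 or lot 2 of fl/fl ES cells 2036 and 1909 of all genes were called, and without lot 1 or lot 12 of KO ES cells 2226 and 2233. Between 13 and 16 sterol enzymes and 9 and 10 fatty acid enzymes were called higher when any 1 library was left out. Tm7sf2 (adjusted p = 0.0478 with edgeR), Sc5d (0.049) and Acss2 (0.0182) each lost the call without any 1 of the 4 ES cell libraries, with edgeR adjusted p of 0.0658 to 0.259, 0.0683 to 0.247 and 0.0659 to 0.111. Tm7sf2 and Sc5d also lost it without lot 1 (0.0547 and 0.0579) or lot 2 (0.055 and 0.0577) of KO EBd2.

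**Figure D3:**
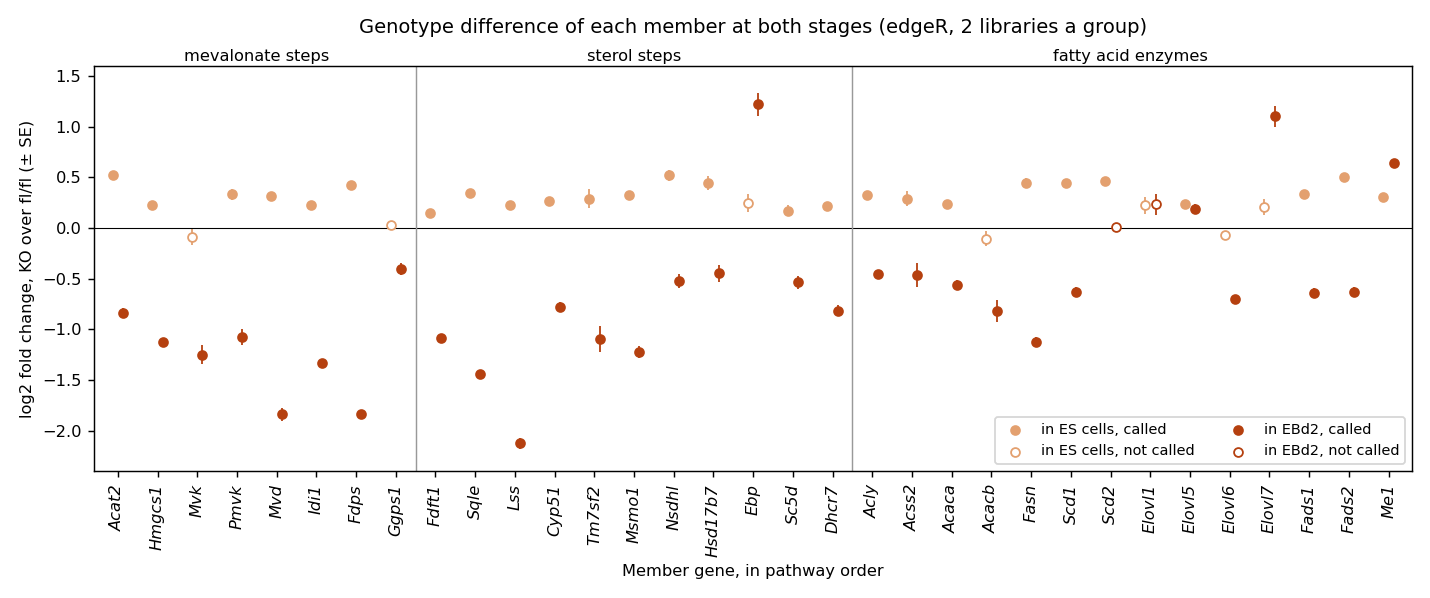
Points are log2 fold changes of KO over fl/fl from edgeR with SE bars, for each member in ES cells and in EBd2, and open points were not called. The ES cell points lie between -0.11 and 0.52, and the EBd2 points run from -2.12 (Lss) to 1.22 (Ebp).

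In EBd2 the genotype difference was larger. All 8 mevalonate members and 10 of the 11 members of the sterol steps were called lower in KO, with medians of -1.19 and -0.81, and Ebp was called higher. Among the 14 fatty acid enzymes 9 were called lower and Elovl5, Elovl7 and Me1 higher, while Scd2 and Elovl1 were not called. Among all genes tested 62.2% were called, 30.7% higher and 31.5% lower (5072 and 5217 genes), so a call by itself was common in this comparison. For 12 members the log2 fold change had at most 6.84% of all genes below it, and Fasn was the only fatty acid enzyme among them. With library size alone as scaling the median of all genes moved up by 0.23, the split of all genes became 7075 and 3345, and the fatty acid enzymes split 5 higher and 8 lower, while the sterol enzymes stayed at 1 and 18.

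By stage, the 2 genotypes went opposite ways in most sterol enzymes. In fl/fl cells 15 of 19 sterol enzymes were called higher in EBd2 than in ES cells and 1 lower (Ebp), with a median of 0.57, against 59% of all genes called, 28.9% higher and 30.1% lower. In KO cells 17 were called lower and 1 higher (Ebp), with a median of -0.70, against 64.8% of all genes called, 31.7% higher and 33.1% lower. Of the fatty acid enzymes 8 were called higher and 4 lower in fl/fl (median 0.24), and 3 higher and 8 lower in KO (median -0.27). Without lot 1 of fl/fl EBd2 only 2 of them were called lower in fl/fl, and without lot 2 of KO EBd2 only 1 was called higher in KO. Among these, Scd1, Acss2 and Acacb had their lowest values in KO EBd2 without a rise in fl/fl EBd2. These comparisons share libraries with those between genotypes, and so do not add to them. For KO the split of all genes, 5248 higher and 5473 lower, became 6665 and 4106 with library size alone, and the median of all genes moved by 0.15. In that setting Acaca, not called otherwise, was called higher in KO EBd2 than in KO ES cells (0.12, edgeR adjusted p = 0.0458).

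A few of the stage calls also rested on 1 library. In fl/fl cells Scd2 (edgeR adjusted p = 0.0139) lost the call without lot 1 of fl/fl ES cells (0.0647) or lot 1 of fl/fl EBd2 (0.101), and Acss2 without lot 12 of fl/fl EBd2 (0.0514). Elovl1 and Elovl6 lost theirs without lot 2 of fl/fl ES cells (0.083 and 0.0521) or lot 12 of fl/fl EBd2 (0.113 and 0.0752), and Scd1 gained one without lot 1 of fl/fl ES cells (0.0376) or either library of KO EBd2 (0.0394 and 0.0404). In KO cells Elovl7 lost the call without lot 12 of KO ES cells (0.0532) or lot 2 of KO EBd2 (0.0968), Elovl1 without lot 2 of KO EBd2 (0.0922), and Elovl5 gained one without lot 1 of KO ES cells (0.0309) or lot 1 of fl/fl EBd2 (0.0492).

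The test of the interaction asks whether the genotype difference in EBd2 differed from that in ES cells. It was called for all 19 sterol enzymes, 18 more negative in EBd2 and Ebp more positive, with a median of -1.36. Of the fatty acid enzymes 10 were more negative, Elovl7 and Me1 more positive, and Elovl1 and Elovl5 were not called, with a median of -0.73. Among all genes tested 48% were called, 22.4% more positive and 25.7% more negative (3704 and 4244 genes), a split that became 5008 and 2992 with library size alone, which moved the median of all genes by 0.16. The most negative values were in Lss (-2.35 ± 0.07, edgeR adjusted p = 2.53e-09), Fdps (-2.26 ± 0.05, edgeR adjusted p = 8.78e-10) and Mvd (-2.15 ± 0.08, edgeR adjusted p = 7.34e-09).

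Counted over single libraries, both KO EBd2 libraries lay below the other 6 for 15 of 19 sterol enzymes and 5 of 14 fatty acid enzymes, against 24.7% of all genes tested. Both fl/fl EBd2 libraries lay above the other 6 for 13 and 6, against 20.7%. The sterol enzymes that were not lowest in KO EBd2 were Nsdhl, Hsd17b7, Ebp and Sc5d, all of them late steps. The summed CPM of the 19 sterol enzymes was 2078 and 2110 for fl/fl ES cells, 2539 and 2534 for KO ES cells, 3106 and 3171 for fl/fl EBd2 and 1397 and 1395 for KO EBd2. For the 14 fatty acid enzymes it was 2827 and 2794, 3518 and 3665, 3727 and 3933, and 2788 and 2700 in the same order. KO EBd2 therefore had the lowest sterol sum of all groups, while their fatty acid sum lay near that of fl/fl ES cells. The ratio of the sterol to the fatty acid sum was 0.745 ± 0.0142 (SD, n = 2) in fl/fl ES cells, 0.706 ± 0.0214 in KO ES cells, 0.820 ± 0.0191 in fl/fl EBd2 and 0.509 ± 0.0111 in KO EBd2. Scd2 made up 30.5% to 33.1% of the fatty acid sum in ES cells, 20.6% to 20.7% in fl/fl EBd2, where Fasn was the largest part, and 28.9% to 29.2% in KO EBd2. As these are bulk samples, fewer cells of a type and less RNA per cell cannot be told apart.

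**Figure D4:**
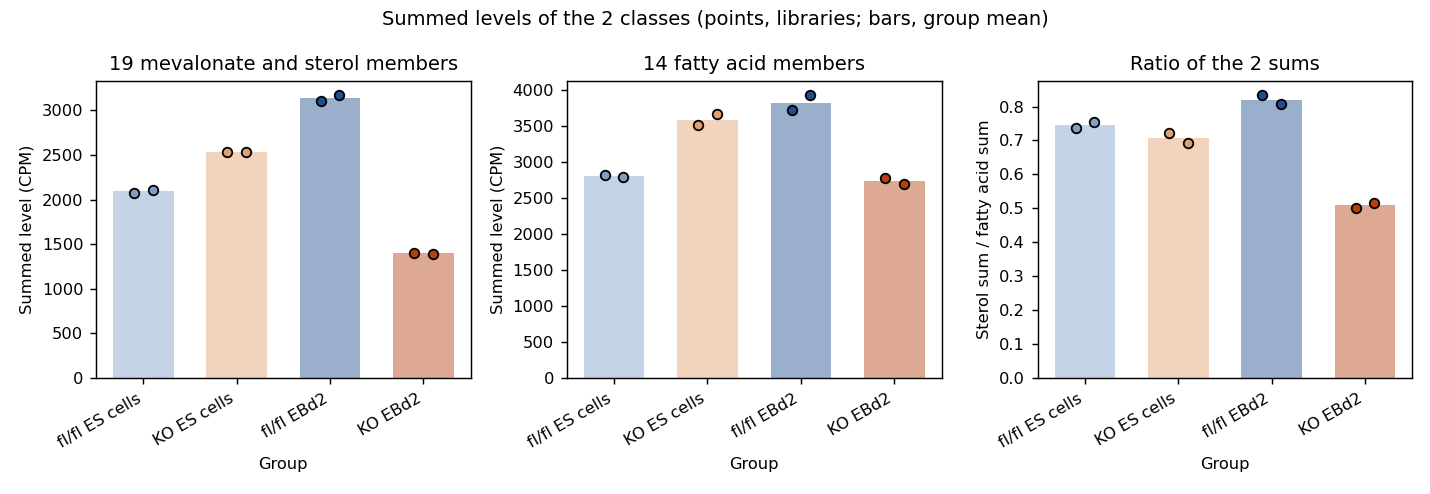
Points are libraries and bars are group means of the summed CPM of the 19 sterol enzymes, the summed CPM of the 14 fatty acid enzymes, and the ratio of the 2 sums, all on axes that start at 0. The sterol sum is lowest in KO EBd2, where the ratio is 0.501 and 0.517, below all 6 other libraries.

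Cell type markers differed between the same groups. The visceral endoderm list (Afp, Ttr, Apoa1, Apob and 7 others) summed to between 961 and 979 CPM in KO EBd2, 400.4 to 450.2 in fl/fl EBd2, 66.9 to 69.6 in fl/fl ES cells and 56.3 to 56.7 in KO ES cells. In KO against fl/fl EBd2, 9 of its 10 tested members were called higher and 1 lower, and Afp was at 0 in both fl/fl ES cell libraries. Primitive streak markers summed to between 152 and 157 CPM in KO EBd2 and to at most 18.5 CPM elsewhere, with 4 of 4 called higher. Epiblast markers were 4 of 4 called lower. Of 6 trophectoderm markers 5 were called higher in KO EBd2 (among them Cdx2, 5.35 ± 0.26) and Tfap2c lower (-0.79 ± 0.05), and the list summed to 113 to 116 CPM in fl/fl EBd2 and 137 to 143 CPM in KO EBd2. Of 4 tested neuroectoderm markers 3 were called lower there. ES cell markers went both ways in KO EBd2, with Nanog (0.76 ± 0.05) and Klf4 (1.70 ± 0.09) called higher, Pou5f1 (-0.53 ± 0.04) and Esrrb (-0.68 ± 0.05) called lower and Zfp42 not called. They summed to 1441 to 1499 CPM in fl/fl EBd2 and 1269 to 1327 CPM in KO EBd2. In KO ES cells 3 of the 5 were called lower, Klf4 (-0.51 ± 0.04), Esrrb (-0.49 ± 0.04) and Zfp42 (-0.24 ± 0.04), and the list summed to 2043 to 2107 CPM, against 2328 to 2358 CPM in fl/fl ES cells. Fibroblast feeder markers summed to 593 to 629 CPM in fl/fl ES cells and 690.4 to 752 CPM in KO ES cells, where 3 of 8 tested were called higher. They summed to 28.2 CPM in both fl/fl EBd2 libraries and 146 to 160.0 CPM in KO EBd2, with 7 of 8 called higher. The exception, Dcn, was not called (-0.69 ± 0.69). Dcn and Lum, which was not tested, were low in every group, with means of at most 1.07 and 0.27 CPM. The part of these cell types, and of the mitochondrial share of counts, in the members' levels was not tested.

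Other genes of the sterol path followed the members in part. Of 11 other sterol and isoprenoid enzymes 2 were called higher and 2 lower in KO ES cells, and 1 higher and 7 lower in KO EBd2, with medians of -0.04 and -0.37. Among all genes tested 10.9% were called higher and 12.8% lower in KO ES cells, and 30.7% and 31.5% in KO EBd2. Fnta, a subunit of the protein prenyl transferases, fell in KO EBd2 (-1.01 ± 0.05) and was lower in KO ES cells too (-0.20 ± 0.04). Lbr, which also reduces sterols, fell in KO EBd2 (-0.47 ± 0.04, edgeR adjusted p = 2.71e-06) and by stage in KO cells (-0.76 ± 0.04).

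Genes that sense and move sterols did not share 1 direction. Of 15 listed, 4 were called higher and 2 lower in KO ES cells, and 6 higher and 7 lower in KO EBd2, with medians of 0.05 and -0.24. The shares of all genes tested were 10.9% higher and 12.8% lower in KO ES cells, and 30.7% and 31.5% in KO EBd2. Insig1, which retains SCAP in the endoplasmic reticulum, stood at 294 and 296 CPM for fl/fl ES cells, 304 and 304 for KO ES cells, 243 and 237 for fl/fl EBd2, and 97.2 and 99.00 for KO EBd2. Insig1 (-1.29 ± 0.04, edgeR adjusted p = 3.98e-10), the factor gene Srebf2 (-0.93 ± 0.04) and the sterol carrier Stard4 (-0.64 ± 0.06) fell in KO EBd2. Srebf2 was measured at 543 and 520.4 CPM for fl/fl ES cells, 475 and 492 for KO ES cells, 463 and 459 for fl/fl EBd2, and 252 and 233 for KO EBd2. Unlike most sterol enzymes, Srebf2 was called lower in KO ES cells (-0.14 ± 0.04, edgeR adjusted p = 0.028). Stard4 was called higher there (0.40 ± 0.04), and Insig1 was not called (0.04 ± 0.03). In the other direction Scap, the escort of SREBPs (0.97 ± 0.06), and the cholesterol exporter Abca1 (3.51 ± 0.17, edgeR adjusted p = 1.27e-08) rose in KO EBd2. Abca1 read 9.12 and 8.70 CPM for fl/fl ES cells, 13.9 and 15.4 for KO ES cells, 2.43 and 3.69 for fl/fl EBd2, and 32.3 and 38.3 for KO EBd2. Srebf1, named after its values were seen because it encodes the SREBP most tied to fatty acid enzymes, was slightly higher in KO EBd2 (0.26 ± 0.05, edgeR adjusted p = 0.0005).

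Of 24 other fatty acid enzymes and regulators tested out of 26 listed, 5 were called higher and 2 lower in KO ES cells, and 9 higher and 8 lower in KO EBd2, with medians of 0.08 and 0.13. Of all genes tested 10.9% were called higher and 12.8% lower in KO ES cells, and 30.7% and 31.5% in KO EBd2. The calls of this list in KO EBd2 lay near those shares. The genes named next had the smallest p there. Acsl4, which activates long polyunsaturated fatty acids (-1.38 ± 0.04, edgeR adjusted p = 5.28e-10), Mid1ip1, which binds acetyl-CoA carboxylase (-1.14 ± 0.08), and the citrate carrier Slc25a1 (-0.63 ± 0.05) fell in KO EBd2. Acsl4 had levels of 84.6 and 85.6 CPM for fl/fl ES cells, 84.1 and 84.7 for KO ES cells, 184 and 178 for fl/fl EBd2, and 68.98 and 70.5 for KO EBd2, with both fl/fl EBd2 libraries on top as in Fasn.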

How the data were processed

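Poly(A) RNA of 8 libraries was sequenced. The deposited table holds raw counts per gene symbol for 36255 genes, made by the authors with no normalization. The submitters' processing notes name Trim Galore 0.6.7, GRCm38 and mm10. Aligner, counting tool, annotation and strand setting were not stated. Total counts, 7858452 to 23343471, limit the precision of low genes.

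Groups follow the sample titles. In R 4.3.3 with edgeR 4.0.16, filterByExpr by group kept 16542 genes, TMM factors scaled the libraries, and a model of 4 group means over 8 libraries gave 5 contrasts by the quasi-likelihood test (two-sided, Benjamini-Hochberg over all genes tested, threshold 0.05). The SE is the size of the log2 fold change over the square root of F. The common coefficient of variation was 3.40%, with 4 residual degrees of freedom. DESeq2 1.42.0, other scalings and filters, a replicate block, thinning and left-out libraries were tried as alternatives. The fit was tested on simulated data.

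Exon lengths and positions came from GENCODE vM21, promoters from RefSeq, and copies from blastn 2.17.0 (at least 90% identity over 200 bases). Members and lists were chosen with earlier results of these data known. All members were named, and of other lists up to 3 genes per contrast with the smallest p among those called. Values of some single genes of the pathway lists are not reported here, although the counts and medians of those lists include them.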

Additional observations from a re-analysis of the deposited data

Results flagged for a closer look

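For 31 of the 33 members the genotype difference in EBd2 departed from that in ES cells by the edgeR test of the interaction of genotype and stage (log2, EBd2 effect minus ES cell effect), with an adjusted p at or below 0.00124. The same test called 48% of all genes tested. Among the mevalonate steps the values were -1.36 for Acat2, -1.36 for Hmgcs1, -1.16 for Mvk, -1.41 for Pmvk, -2.15 for Mvd, -1.56 for Idi1, -2.26 for Fdps and -0.43 for Ggps1. Ggps1, at the branch towards protein prenylation, thus differed least of these.

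Among the sterol steps they were -1.23 for Fdft1, -1.78 for Sqle, -2.35 for Lss, -1.05 for Cyp51, -1.38 for Tm7sf2, -1.55 for Msmo1, -1.04 for Nsdhl, -0.90 for Hsd17b7, -0.71 for Sc5d and -1.03 for Dhcr7, and Ebp stood alone at 0.98.

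Among the fatty acid enzymes they were -0.78 for Acly, -0.75 for Acss2, -0.79 for Acaca, -0.71 for Acacb, -1.57 for Fasn, -1.08 for Scd1, -0.45 for Scd2, -0.63 for Elovl6, -0.97 for Fads1 and -1.13 for Fads2, with 0.89 for Elovl7 and 0.33 for Me1 in the other direction. Elovl1 (0.01 ± 0.13) and Elovl5 (-0.06 ± 0.06) were not called (edgeR adjusted p = 0.971 and 0.497).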

How the results depend on the processing

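With 2 libraries per group, log2 values of low members such as Tm7sf2 or Acss2 are the least precise, and depth in EBd2 was less than in ES cells. Of 2607 values of single members under the alternatives, 2521 kept their direction and side of the threshold, 55 lost and 30 gained a call, and 1 reversed: Acaca in EBd2 against ES cells of KO, at 0.12 with library size only. None of the 495 interaction values changed its call. No total of called members moved by more than 1.5 times, but small counts in 1 direction did. Library size only raised the fatty acid enzymes called higher from 3 to 5, both in KO against fl/fl EBd2 and by stage in KO. Leaving out lot 2 of KO EBd2 lowered the latter to 1, and leaving out lot 1 of fl/fl EBd2 lowered those called lower by stage in fl/fl from 4 to 2. Ebp, the 1 sterol enzyme lower by stage in fl/fl, was not called by DESeq2 or without lot 1 of fl/fl ES cells or either lot of fl/fl EBd2. With the replicate block Acacb was called lower in KO ES cells, and without Acly, Acss2 and Me1 the fatty acid enzymes with a positive interaction went from 2 to 1. The causes of the changes below were not tested. Library size only, without TMM, gave sterol and fatty acid medians of 0.34 and 0.37 for KO against fl/fl in ES cells, -0.86 and -0.29 for the same in EBd2, -0.55 and -0.12 for EBd2 against ES cells in KO, and -1.20 and -0.58 for the interaction. The stricter filter gave fatty acid medians of 0.32 in ES cells, -0.45 in EBd2, -0.23 by stage in KO and -0.69 for the interaction, and a sterol median of -1.02 in EBd2, and no filter gave fatty acid medians by stage of 0.21 in fl/fl and -0.31 in KO. Thinned libraries gave 2029 called genes in ES cells (3926 in the main setting) and fatty acid medians of 0.32, -0.47, 0.26 (stage in fl/fl), -0.25 (stage in KO) and -0.62 (interaction). For the interaction the fatty acid median was -0.72 with RLE scaling and -0.71 with DESeq2, and in EBd2 it was -0.48 with only the 4 libraries compared. Without Acly, Acss2 and Me1 the fatty acid medians were 0.24, -0.63, 0.15, -0.18 and -0.71 in the same order as for thinning, and without Acat2 and Ggps1 the sterol median by stage in KO was -0.81.

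Lots 1, 2 and 12 as a replicate block gave 2236 called genes in ES cells, fatty acid medians of 0.28, -0.44, 0.22, -0.20 and -0.58 in that order, and a sterol median by stage in fl/fl of 0.52. Deviations of lot 1 from its group mean correlated between groups at -0.022 to 0.018 over all genes tested. With 2 libraries per group and counting noise in low genes, this cannot show whether lots of the same number shared a batch. With any 1 library left out, called genes in ES cells ran from 1909 to 3958. The fatty acid median ran from 0.29 to 0.32 in ES cells, -0.60 to -0.47 in EBd2, 0.20 to 0.28 by stage in fl/fl and -0.32 to -0.23 by stage in KO, and the sterol median by stage in fl/fl from 0.47 to 0.59. For the interaction the sterol median ran from -1.34 to -1.25 and the fatty acid median from -0.82 to -0.63. Where 1 library of a group was left, that library was taken to vary like the others.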

Other observations

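Fatty acid oxidation is the opposite path to synthesis. Of its 17 listed genes none was called higher and 6 were called lower in KO ES cells, with a median log2 fold change of -0.15, where 12.8% of all genes tested were called lower. The carnitine transferase Cpt1a, which admits long chains to mitochondria (-0.28 ± 0.04, edgeR adjusted p = 0.000685), and Hadha and Hadh, which take part in the oxidation cycle (-0.24 ± 0.04 and -0.16 ± 0.04), were those with the smallest p. In KO EBd2 the calls were 6 higher and 4 lower and the median was 0.08, where 30.7% of all genes tested were called higher and 31.5% lower. The carnitine carrier Slc25a20 stood at 39.8 and 36.7 CPM for fl/fl ES cells, 40.5 and 40.4 for KO ES cells, 34.8 and 30.5 for fl/fl EBd2, and 95.04 and 98.1 for KO EBd2. It rose in KO EBd2 (1.57 ± 0.07, edgeR adjusted p = 6.96e-09), while Cpt2 fell (-0.51 ± 0.07). Cpt1a fell by stage in fl/fl cells (-1.20 ± 0.05).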
